A study of Homo sapiens with 27 samples.

Results

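Messenger RNA levels of 10 genes that build, coat and break down triglyceride stores were taken from a table of 20987 genes measured in 27 RNA sequencing libraries of human prostate cancer cells. The genes were GPAM, DGAT1 and DGAT2 for synthesis, PLIN2 and PLIN3 for the droplet coat, and PNPLA2, ABHD5, G0S2, LIPE and MGLL for lipolysis. They were chosen by symbol, for their known roles, and all 10 were found in the table. The study treated 3 established cell lines for 6 days, with the medium not replaced, with IPI-9119, which inhibits fatty acid synthase (FASN), or with the solvent DMSO alone. LNCaP, which came from a metastasis in a lymph node, carries the label androgen sensitive, while 22Rv1, derived from a xenograft, and LNCaP95, a derivative of LNCaP, are labelled castration resistant. Each line had a DMSO group, a 100 nM group and a 500 nM group of 3 libraries each. The labels name no genetic change, LNCaP95 and LNCaP share their origin, and androgen status cannot be told apart from other differences between the lines.

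A triglyceride is a glycerol backbone with fatty acids attached one after another. The glycerol phosphate acyltransferases, of which GPAM is the mitochondrial form, attach the first fatty acid, and the diacylglycerol acyltransferases DGAT1 and DGAT2, which are unrelated in sequence, attach the last. The product is stored in lipid droplets whose surface carries perilipins, among them PLIN2 and PLIN3. Lipolysis starts with PNPLA2, the adipose triglyceride lipase, which ABHD5 activates and G0S2 inhibits. LIPE, the hormone-sensitive lipase, cleaves diacylglycerol, and MGLL releases the last fatty acid from monoacylglycerol. Prostate cancer cells make much of their fatty acid themselves through FASN, the enzyme targeted in the study.

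Promoter sequence is shown for PLIN2 and G0S2, the 2 genes that were low or at 0 outside 22Rv1, and for PNPLA2, whose rise in LNCaP95 had the smallest adjusted p among the 10 genes in that line. The windows are the 250 bases before the transcription start listed by RefSeq on GRCh38.p14, of which bases inside an annotated exon of the gene itself were left out. In this table, 7 of the 10 genes were matched, all but DGAT1, DGAT2 and MGLL. Capitals mark matches to the motifs searched on either strand. TATAAA stood for the TATA box. CCAAT stood for the CCAAT box. GGGCGG stood for the GC box. CACGTG stood for the E-box. TCACNCCAC stood for the sterol regulatory element. The PPAR response element was searched as the half-site AGGTCA in direct repeat with 1 base between the copies. None of these motifs contains another. The PLIN2 stretch is chr9:19127577-19127742 on the minus strand, the G0S2 stretch chr1:209675162-209675411 on the plus strand and the PNPLA2 stretch chr11:818664-818901 on the plus strand.
PLIN2: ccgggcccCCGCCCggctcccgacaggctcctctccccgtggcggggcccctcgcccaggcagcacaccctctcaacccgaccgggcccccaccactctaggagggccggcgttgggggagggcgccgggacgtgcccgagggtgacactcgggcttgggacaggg
G0S2: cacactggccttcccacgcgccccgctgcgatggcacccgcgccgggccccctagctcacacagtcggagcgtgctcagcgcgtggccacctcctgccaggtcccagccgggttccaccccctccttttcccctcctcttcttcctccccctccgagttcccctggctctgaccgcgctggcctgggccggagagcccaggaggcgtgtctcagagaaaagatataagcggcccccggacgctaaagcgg
PNPLA2: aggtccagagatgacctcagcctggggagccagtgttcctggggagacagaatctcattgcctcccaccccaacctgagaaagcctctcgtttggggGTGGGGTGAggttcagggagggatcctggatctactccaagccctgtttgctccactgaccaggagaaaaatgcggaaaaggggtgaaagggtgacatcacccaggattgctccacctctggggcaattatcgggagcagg
The full PLIN2 window of 250 bases held 2 GC boxes, an E-box and a TATA box. The GC box occurred in 42.6% of the 35116 promoter windows of the table, the E-box in 6.34%, the TATA box in 10.7% and the CCAAT box in 32%. None of the motifs was found in the G0S2 window. The PNPLA2 window held the TCACNCCAC motif from base 153 to base 145 before the start, a match found in 0.883% of all windows, and a GC box. The PPAR response element was found in none of the 7 matched genes, against 0.0171% of all windows. CpG dinucleotides numbered 28 in the PLIN2 window, 21 in that of G0S2 and 4 in that of PNPLA2, against a median of 11 over all windows. A match says only that the letters are there.

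Values are the deposited normalized counts, that is read counts divided by a size factor of the library, and log2 fold changes are on the log2(value + 1) scale, tested with limma and adjusted over all genes tested. The libraries held 14757874 to 26578881 reads in genes, and 1 read was worth 0.757 to 1.39 normalized counts. The 8 luminal prostate markers, KLK3 among them, were above 0 in all 27 libraries, and the 4 adipocyte markers summed to 0 to 8.804 per library. The summed luminal markers stood at 60960 to 72170 in DMSO and 36610 to 41240 under IPI-9119 in LNCaP, at 28140 to 31840 and 22210 to 27610 in 22Rv1, and at 24970 to 26690 and 29720 to 33270 in LNCaP95. The mean log2 level of 6 mitosis genes was 8.95 to 10.70 in DMSO and 10.39 to 11.33 under IPI-9119 in LNCaP. It was 11.87 to 11.96 in DMSO and 11.48 to 11.65 under IPI-9119 in 22Rv1, and 12.02 to 12.19 and 10.11 to 10.77 in LNCaP95. LNCaP DMSO replicate 1 stood apart, with FASN at 55000 against 29270 and 28680 in the other DMSO libraries of the line and the highest of their mitosis levels. LNCaP 100 nM replicate 1 had FASN at 227500 against 51990 and 45540, and LNCaP 500 nM replicate 1 at 234800 against 133700 and 126300. Replicate 1 thus had the highest FASN value in every group of this line. In 22Rv1 DMSO replicate 3, 18444 genes were above 0 against 15641 and 15860 in the other DMSO libraries of the line, and the summed endothelial markers were at 14.44 against 2.636 and 2.408. The part of the luminal and mitosis levels and of these libraries in the results below was not tested, except where values without a library are given. Whether replicates came from separate cultures is not stated in the labels, and p-values therefore measure the spread of these libraries only, part of which may be technical.

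In vehicle-treated cells the 3 lines differed in nearly all of the 10 genes, and 22Rv1 stood furthest from the others. PLIN2, LIPE and G0S2 were higher in 22Rv1 than in both other lines, while GPAM, DGAT2, PLIN3 and ABHD5 were lower there than in both. Between 22Rv1 and LNCaP, 9 of 10 genes passed the test, 3 higher and 6 lower in 22Rv1, where 74.8% of all genes tested passed. LNCaP95 and LNCaP differed in 7 of 10 genes (66.5% of all genes), and LNCaP95 and 22Rv1 in 10 of 10 (76.1%). With such shares among all genes, the counts are close to the background, and the sizes carry the description. Genes were tested here if 3 or more DMSO libraries, taken over all lines, reached a value of 10. PLIN2 and G0S2 reached this only with their high 22Rv1 values, so their calls add no support to these counts. In bulk RNA, fewer cells with a transcript and less of it per cell cannot be told apart.

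**Figure D1:**
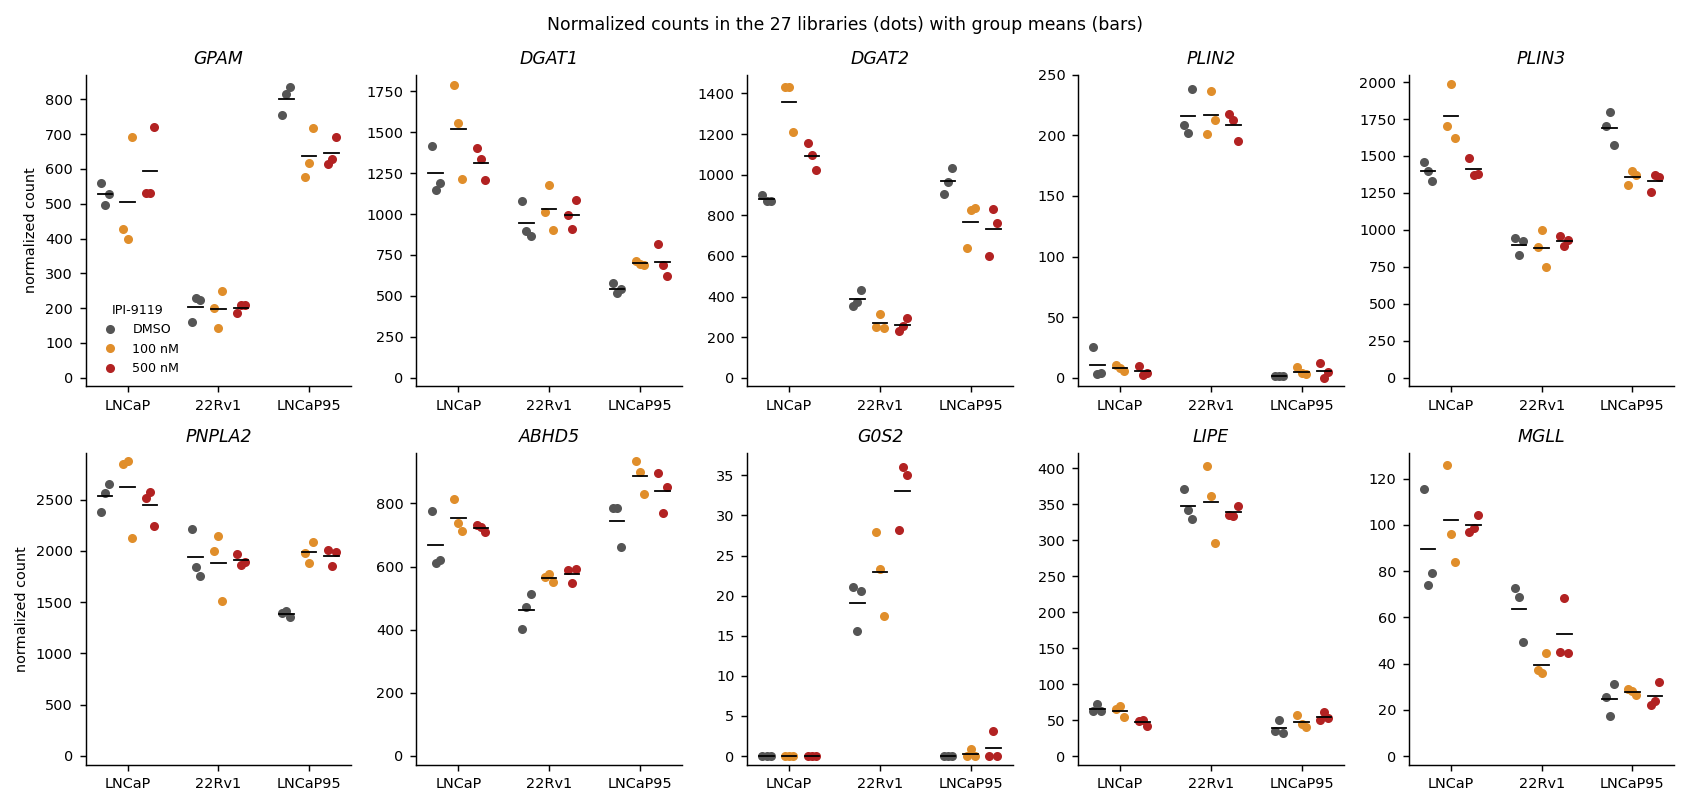
Normalized counts of the 10 genes (vertical axes, linear, a scale of its own per gene) in the 27 libraries, grouped by cell line (horizontal axis) and coloured by treatment, with a bar at the mean of the 3 libraries of a group. PLIN2, LIPE and G0S2 are high in 22Rv1, DGAT2 lies above DMSO in treated LNCaP and below it in treated 22Rv1 and LNCaP95, and PNPLA2 lies above DMSO in treated LNCaP95.

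Per kilobase of the longest coding transcript in GENCODE 29, the lipase PNPLA2 was the most abundant of the 10 in LNCaP, at a mean of 1040 normalized counts per kilobase ± 57.7 (SD, n = 3), and in 22Rv1, at 798 ± 102. In LNCaP95 the coat gene PLIN3 ranked first at 725 ± 47.6, ahead of PNPLA2 at 572 ± 14.2. The order of the final acyltransferases differed between lines on this per-kilobase scale. DGAT1 and DGAT2 were at 336 ± 38.8 and 359 ± 7.26 in LNCaP, which do not differ beyond their spread, at 255 ± 30.5 and 158 ± 16.2 in 22Rv1, and at 147 ± 8.46 and 394 ± 25.6 in LNCaP95. ABHD5, the activator of PNPLA2, lay between 86 in 22Rv1 and 139 in LNCaP95. Its inhibitor G0S2 reached 22.1 ± 3.49 in 22Rv1 and was at 0 in both other lines. These lengths come from another annotation than the one used for counting, and the isoforms in use were not measured.

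**Figure D2:**
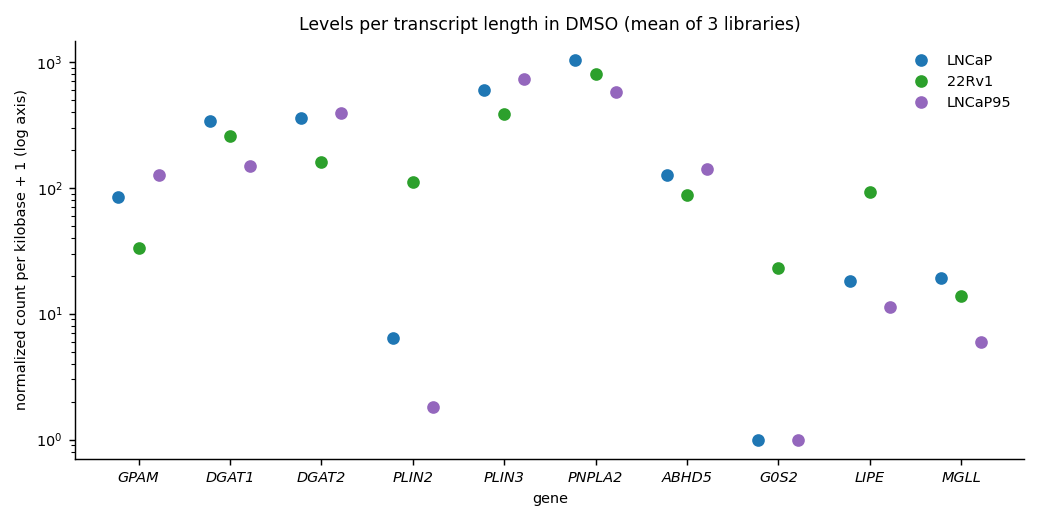
Mean normalized count per kilobase plus 1 in the DMSO libraries (vertical axis, log scale) for the 10 genes (horizontal axis) in the 3 lines, each dot the mean of 3 libraries. PNPLA2 and PLIN3 are the highest in every line, and PLIN2 spans from 0.819 in LNCaP95 to 110 in 22Rv1.

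Under IPI-9119, only DGAT2 of the 10 genes passed the test at both doses in every line. At 500 nM, 1 of the 9 genes tested in LNCaP was called (20.8% of all genes tested), 1 of 10 in 22Rv1 (6.97%) and 5 of 8 in LNCaP95 (52.3%). At 100 nM the counts were 2 of 9 in LNCaP (25.3%), 1 of 10 in 22Rv1 (6.55%) and 6 of 8 in LNCaP95 (52.3%). LNCaP95 had the highest share of calls both in these genes and over all genes. PLIN2 and G0S2 did not pass the filter on low values in LNCaP95, nor did G0S2 in LNCaP. The median log2 fold change of the genes tested at 500 nM was 0.08 in LNCaP, -0.01 in 22Rv1 and 0.14 in LNCaP95, against -0.01, 0.00 and 0.03 over all genes tested. The comparisons of 100 nM and of 500 nM with DMSO share their DMSO libraries, so the values at 100 nM do not repeat those at 500 nM independently. Groups that did not overlap were found for 2 of 9 genes at each dose in LNCaP (40.8% of all genes at 500 nM and 36.8% at 100 nM), for 3 of 10 at each dose in 22Rv1 (31.2% and 24.7%) and for 6 of 8 at each dose in LNCaP95 (58.9% and 60.5%).

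**Figure D3:**
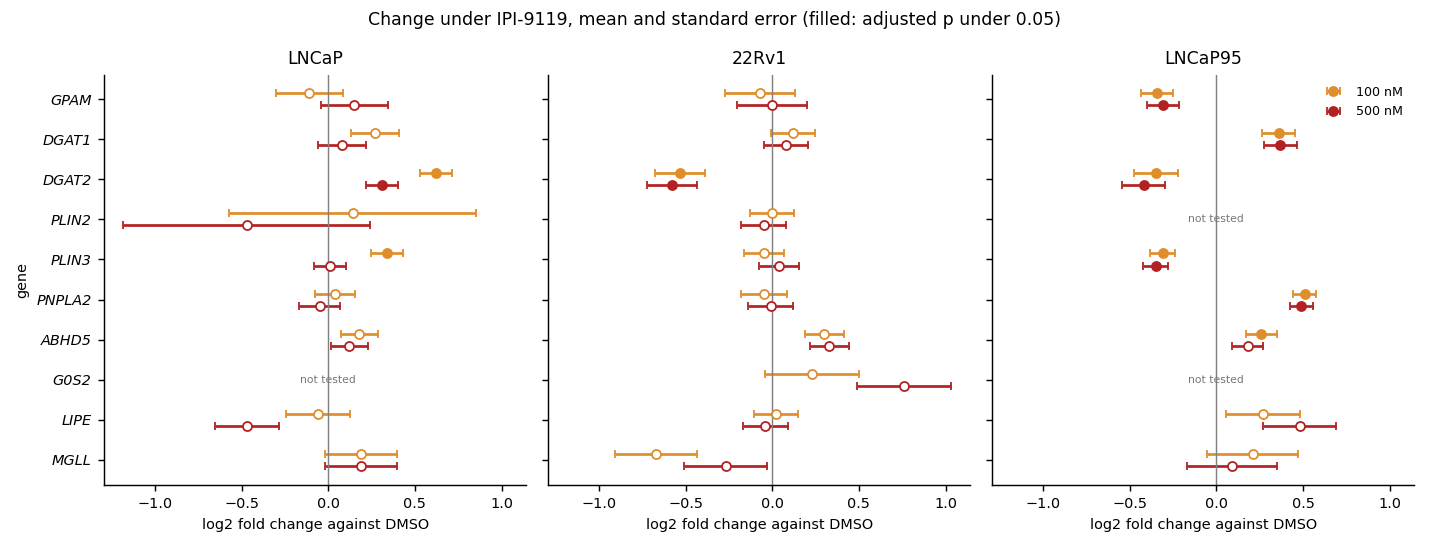
Log2 fold change against DMSO (horizontal axis, with standard error) of the 10 genes (vertical axis) in the 3 lines at 100 nM and 500 nM; filled dots passed an adjusted p of 0.05. DGAT2 lies at 0.62 and 0.31 in LNCaP, at -0.53 and -0.58 in 22Rv1 and at -0.35 and -0.42 in LNCaP95.

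Among the synthesis genes, GPAM, the mitochondrial enzyme of the first acylation, fell in LNCaP95 and did not pass the test elsewhere. Its values in LNCaP95 were 753.6, 815.5 and 836.4 in DMSO, 577.3, 616.2 and 717.9 at 100 nM and 615.0, 629.0 and 691.7 at 500 nM. Every treated library of LNCaP95 lay below every DMSO library. The log2 fold change was -0.34 ± 0.0921 (SE) at 100 nM, adjusted p 0.00788, and -0.31 ± 0.0921 at 500 nM, adjusted p 0.0117. With all 27 libraries in 1 fit, which gives the gene the spread of all lines, the adjusted p rose to 0.168 and 0.199. GPAM was scattered in treated LNCaP, from 398.3 to 691.5 at 100 nM and from 530.0 to 719.6 at 500 nM, around DMSO values of 496.8 to 559.7. In 22Rv1 it was the lowest of the lines, at 159.5 to 228.7 in DMSO, 141.9 to 249.0 at 100 nM and 185.9 to 208.8 at 500 nM. The DMSO mean of LNCaP95 was 3.93-fold that of 22Rv1, and the log2 difference of 1.99 ± 0.188 had an adjusted p of 8.22e-10.

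DGAT1, an acyltransferase of the endoplasmic reticulum, rose in LNCaP95, the line where it was lowest. The LNCaP95 values were 577.5, 515.0 and 541.2 in DMSO, 713.7, 696.7 and 686.1 at 100 nM and 814.5, 689.7 and 624.0 at 500 nM. All treated libraries exceeded all DMSO libraries, and at 500 nM they spread more widely than at 100 nM. The log2 fold change was 0.36 ± 0.0955 at 100 nM, adjusted p 0.00641, and 0.37 ± 0.0955 at 500 nM, adjusted p 0.0052. Treated and DMSO libraries of LNCaP overlapped, at 1144 to 1413 in DMSO, 1215 to 1789 at 100 nM and 1206 to 1404 at 500 nM. The same held in 22Rv1, at 867.4 to 1077 in DMSO, 904.3 to 1175 at 100 nM and 909.6 to 1085 at 500 nM. The log2 fold changes at 500 nM were 0.08 ± 0.137 in LNCaP and 0.08 ± 0.125 in 22Rv1, and the difference of the effect between LNCaP95 and LNCaP, 0.30 ± 0.181, did not pass at an adjusted p of 0.205. DGAT1 overlaps HSF1, a gene of the opposite strand, and it is not known here whether the counting used strand. HSF1 had a log2 fold change of -0.12 ± 0.0633 at 500 nM in LNCaP95, adjusted p 0.116.

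DGAT2, the other enzyme of the last acylation, rose in LNCaP and fell in 22Rv1 and LNCaP95. In LNCaP it was at 900.2, 869.4 and 869.5 in DMSO, 1432, 1433 and 1212 at 100 nM and 1155, 1096 and 1023 at 500 nM. All treated LNCaP libraries lay above all DMSO libraries, those at 100 nM highest. In 22Rv1 the values were 354.5, 374.4 and 431.1 in DMSO, 248.0, 312.5 and 242.9 at 100 nM and 229.9, 254.4 and 293.3 at 500 nM. LNCaP95 had 906.8, 964.2 and 1032 in DMSO, 638.1, 824.7 and 833.9 at 100 nM and 598.4, 830.7 and 763.1 at 500 nM. In both castration-resistant lines every treated library lay below every DMSO library, so that the groups did not overlap in any of the 6 comparisons of a dose with DMSO.

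The log2 fold change of DGAT2 in LNCaP was 0.62 ± 0.092 at 100 nM, adjusted p 0.00105, and 0.31 ± 0.092 at 500 nM, adjusted p 0.0357. The value at 500 nM lay 0.31 below that at 100 nM, with an adjusted p of 0.336. In 22Rv1 the changes were -0.53 ± 0.144 at 100 nM, adjusted p 0.0473, and -0.58 ± 0.144 at 500 nM, adjusted p 0.0318. In LNCaP95 they were -0.35 ± 0.126, adjusted p 0.0338, and -0.42 ± 0.126, adjusted p 0.0138. The direction held when any single library was left out, but several calls did not. At 500 nM in LNCaP the adjusted p was 0.0555 to 0.134 without DMSO replicate 2, DMSO replicate 3 or any single 500 nM replicate, 0.0623 with replicates 2 and 3 alone and 0.0858 with all 27 libraries in 1 fit. At 500 nM in 22Rv1 it was 0.088 to 0.129 without DMSO replicate 2, DMSO replicate 3, 500 nM replicate 1 or 500 nM replicate 2. At 100 nM in 22Rv1 it was 0.0539 to 0.183 without DMSO replicate 1, 2 or 3 or 100 nM replicate 1 or 3. Without 22Rv1 DMSO replicate 3, the library with more genes above 0, the changes in 22Rv1 were -0.50 at 500 nM and -0.45 at 100 nM. In LNCaP95 the adjusted p was 0.051 without DMSO replicate 3 and 0.0623 without 500 nM replicate 1 at the high dose, and 0.0693 to 0.162 without DMSO replicate 2 or 3 or 100 nM replicate 1 at the low dose. Without replicate 1 of the treated group, the LNCaP95 changes were -0.28 at 500 nM and -0.22 at 100 nM. The rise in LNCaP at 100 nM kept its call without any single library.

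The difference of the DGAT2 response between lines was itself past the test. The log2 effect of 500 nM was lower in 22Rv1 than in LNCaP by -0.89 ± 0.182, adjusted p 0.00171, where 14.3% of all genes differed. LNCaP95 was lower than LNCaP by -0.73 ± 0.182, adjusted p 0.00271, where 38.9% differed. These 2 differences kept their call under all 18 alternatives tried for each. Between LNCaP95 and 22Rv1 the difference was 0.16 ± 0.182, with a 95% interval of -0.21 to 0.54 and an adjusted p of 0.548. DGAT2 did not pass the test for an effect common to the lines, at -0.23 ± 0.112, adjusted p 0.153.

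Of the coat genes, PLIN2, the perilipin found on droplets of most cells, showed a contrast between lines and no called change under IPI-9119. In 22Rv1 it stood at 208.2, 202.2 and 238.2 in DMSO, 201.4, 236.2 and 212.6 at 100 nM and 217.5, 212.4 and 195.5 at 500 nM. The 9 libraries of 22Rv1 overlapped across treatments, with a log2 fold change of -0.05 at 500 nM and a 95% interval of -0.33 to 0.23. LNCaP had 25.39, 2.844 and 3.998 in DMSO, 10.3, 8.355 and 5.445 at 100 nM and 10.1, 2.349 and 4.14 at 500 nM. LNCaP DMSO replicate 1, the library that stood apart above, held the highest of these values. LNCaP95 had 1.761, 1.565 and 1.518 in DMSO, which are 2 reads in each library, 8.959, 3.657 and 2.719 at 100 nM and 12.01, 0 and 4.754 at 500 nM. The LNCaP95 libraries at 100 nM lay above those of DMSO, while those at 500 nM overlapped them. The DMSO mean of 22Rv1 was 20.1-fold that of LNCaP and 134-fold that of LNCaP95, the latter on 6 reads over 3 libraries. The log2 differences were 4.76 ± 0.662, adjusted p 5.78e-07, from LNCaP, a difference that was 5.63 without LNCaP DMSO replicate 1 and 3.61 with a pseudocount of 10, and -6.37 ± 0.662 for LNCaP95 against 22Rv1, adjusted p 4.31e-09. The difference between LNCaP95 and LNCaP, -1.61 ± 0.662 with an adjusted p of 0.0355, shrank to -0.75 with an adjusted p of 0.313 without LNCaP DMSO replicate 1. Its adjusted p was 0.0616 to 0.0728 without any single DMSO replicate of LNCaP95. It rests on 29 reads in LNCaP and 6 in LNCaP95. PLIN2 passed the filter for these DMSO tests only through its high 22Rv1 libraries, so their adjusted p-values add no support to the differences.

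PLIN3, a perilipin that moves between the cytosol and droplets, was abundant in all 3 lines, fell in LNCaP95 and rose in LNCaP at the low dose. LNCaP95 had 1703, 1797 and 1576 in DMSO, 1306, 1400 and 1374 at 100 nM and 1259, 1373 and 1357 at 500 nM. No treated library of LNCaP95 reached the lowest DMSO library. The log2 fold change was -0.31 ± 0.072 at 100 nM, adjusted p 0.00259, and -0.35 ± 0.072 at 500 nM, adjusted p 0.00129, and both calls held under all 14 alternatives. LNCaP had 1458, 1398 and 1333 in DMSO, 1701, 1989 and 1620 at 100 nM and 1487, 1369 and 1375 at 500 nM. Only the 100 nM libraries of LNCaP lay apart from DMSO, at 0.34 ± 0.0928, adjusted p 0.0223. That call was lost without DMSO replicate 2, DMSO replicate 3 or 100 nM replicate 2, at an adjusted p of 0.0705 to 0.0873. In 22Rv1 all 9 libraries lay between 746.9 and 1002, and the log2 fold change at 500 nM was 0.04 ± 0.115.

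The effect of 500 nM on PLIN3 differed between LNCaP95 and LNCaP by -0.36 ± 0.132, adjusted p 0.0329, and between LNCaP95 and 22Rv1 by -0.38 ± 0.132, adjusted p 0.0345, where 25.4% of all genes differed. The sizes changed little when single libraries were left out, but the calls were lost without any of the following. The former was -0.36 to -0.32, with an adjusted p of 0.0539 to 0.0817 without LNCaP DMSO replicate 2 or 3, LNCaP 500 nM replicate 1, LNCaP95 DMSO replicate 1 or 2, or LNCaP95 500 nM replicate 1. The latter was -0.38 to -0.33, with an adjusted p of 0.0583 to 0.0942 without 22Rv1 DMSO replicate 2, 22Rv1 500 nM replicate 1 or 3, LNCaP95 DMSO replicate 1 or 2, or LNCaP95 500 nM replicate 1. In DMSO, PLIN3 was 1.88-fold higher in LNCaP95 than in 22Rv1 and 1.21-fold higher than in LNCaP, with adjusted p of 2.83e-09 and 0.011. The comparison with LNCaP had an adjusted p of 0.0544 without LNCaP95 DMSO replicate 2.

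On the lipolysis side, PNPLA2, which cleaves the first fatty acid from a triglyceride, rose in LNCaP95 and did not pass the test in LNCaP or 22Rv1. LNCaP95 had 1398, 1418 and 1351 in DMSO, 1983, 1884 and 2090 at 100 nM and 2008, 1855 and 1993 at 500 nM. The DMSO libraries lay close together and every treated library was above them. The log2 fold change was 0.51 ± 0.0673 at 100 nM, adjusted p 3.45e-05, and 0.49 ± 0.0673 at 500 nM, adjusted p 5.21e-05, a 1.40-fold rise at the high dose. Both calls held under all 14 alternatives. In LNCaP the values were 2380, 2568 and 2652 in DMSO, 2849, 2881 and 2131 at 100 nM and 2517, 2575 and 2245 at 500 nM. In 22Rv1 they were 2219, 1839 and 1755 in DMSO, 2002, 2144 and 1513 at 100 nM and 1975, 1862 and 1895 at 500 nM. Treated and DMSO libraries overlapped in both lines, with changes at 500 nM of -0.05 ± 0.117 and -0.01 ± 0.132.

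The effect of 500 nM on PNPLA2 in LNCaP95 exceeded that in LNCaP by 0.54 ± 0.163, adjusted p 0.0104, which held under all 18 alternatives. It exceeded that in 22Rv1 by 0.50 ± 0.163, adjusted p 0.0252. The latter was lost at an adjusted p of 0.0518 to 0.0754 without 22Rv1 DMSO replicate 1, 22Rv1 500 nM replicate 2, LNCaP95 DMSO replicate 3 or LNCaP95 500 nM replicate 1. In DMSO, PNPLA2 was 1.82-fold higher in LNCaP than in LNCaP95, adjusted p 4.14e-07, and 1.40-fold higher in 22Rv1 than in LNCaP95, adjusted p 0.000663. PNPLA2, PLIN3 and DGAT2 each overlap an antisense gene that is not in the table, so reads of the partner may be among theirs.

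ABHD5, the activator of PNPLA2, was the only 1 of the 8 genes tested that was called in the test for a change common to the lines. Its value was 0.21 ± 0.0669 with an adjusted p of 0.0336, where 22.9% of all genes passed. That test fits 1 mean effect of 500 nM over the lines and does not ask whether each line shares it. At 500 nM ABHD5 was called in no line, with 0.12 ± 0.107 in LNCaP, adjusted p 0.47. LNCaP had 775.5, 612.4 and 621.6 in DMSO, 815.1, 736.6 and 711.8 at 100 nM and 731.3, 726.6 and 709.6 at 500 nM. In 22Rv1 the values were 400.6, 471.9 and 512.6 in DMSO, 565.9, 576.3 and 551.7 at 100 nM and 588.2, 548.4 and 591.4 at 500 nM. LNCaP95 had 784.4, 785.0 and 662.6 in DMSO, 933.7, 900.6 and 830.3 at 100 nM and 895.8, 771.0 and 851.0 at 500 nM. Treated libraries lay above all DMSO libraries at both doses in 22Rv1 and at 100 nM in LNCaP95, and overlapped them in LNCaP. Within lines, the call was made at 100 nM in LNCaP95, at 0.26 ± 0.09 with an adjusted p of 0.0279. The changes in 22Rv1 were 0.30 ± 0.111 at 100 nM and 0.33 ± 0.111 at 500 nM, with adjusted p of 0.14 and 0.103.

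The common change of ABHD5 stayed at 0.17 to 0.20 but was not called without any 1 of 9 libraries, at an adjusted p of 0.0504 to 0.0692. These were LNCaP DMSO replicates 2 and 3, 22Rv1 DMSO replicates 1 and 2, 22Rv1 500 nM replicates 1 and 3, LNCaP95 DMSO replicate 3 and LNCaP95 500 nM replicates 1 and 3. At 100 nM in LNCaP95 the call was lost at 0.0731 to 0.13 without DMSO replicate 3 or 100 nM replicate 1 or 2, at 0.0519 with DESeq2 and at 0.0658 with equal totals. At 500 nM in LNCaP95 the change was 0.18 ± 0.09, adjusted p 0.119. Replicate numbers paired the libraries of this line, and with the replicate as a block the adjusted p at 500 nM was 0.0492.

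G0S2, the inhibitor of PNPLA2, was detected throughout in 22Rv1 only. LNCaP had 0 reads in all 9 libraries, and LNCaP95 had 0 in 7 of 9, with 0.9143 in 100 nM replicate 2 and 3.088 in 500 nM replicate 2. In 22Rv1 it was at 21.09, 15.65 and 20.63 in DMSO, 27.95, 23.3 and 17.41 at 100 nM and 28.17, 36.0 and 35.0 at 500 nM. The 500 nM libraries lay above all DMSO libraries, but the log2 fold change of 0.76 ± 0.272 did not pass, at an adjusted p of 0.116. With 49 reads over the 3 DMSO libraries of 22Rv1 and 0 in the other lines, the level was at least 18.5-fold higher than in LNCaP and at least 23.7-fold higher than in LNCaP95, against a floor of 3 reads over a group. This floor covers counting error only.

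LIPE, the hormone-sensitive lipase, was also highest in 22Rv1, and its values at 500 nM lay below DMSO in LNCaP and above DMSO in LNCaP95. It was at 371.6, 341.9 and 329.0 in 22Rv1 DMSO libraries, 62.32, 72.05 and 61.96 in those of LNCaP and 35.22, 50.09 and 32.64 in those of LNCaP95. The DMSO mean of 22Rv1 was 5.31-fold that of LNCaP, adjusted p 4.13e-12, and 8.84-fold that of LNCaP95, adjusted p 1.99e-14. At 500 nM LNCaP had 48.81, 50.11 and 42.23, all below its DMSO libraries, and LNCaP95 had 50.79, 60.73 and 52.3, all above its DMSO libraries. The log2 fold changes of -0.47 ± 0.184 and 0.48 ± 0.212 missed the threshold in each line, at adjusted p of 0.0937 and 0.0711. With all 27 libraries in 1 fit both were called, at 0.049 and 0.0269. With the replicate as a block, the LNCaP95 value had an adjusted p of 0.0473, and without LNCaP95 DMSO replicate 2 it was 0.67 with an adjusted p of 0.022. The difference between these effects was called, at 0.95 ± 0.234 with an adjusted p of 0.00227, and held under all 18 alternatives. At 100 nM LIPE was at 53.67 to 69.63 in LNCaP and 40.79 to 56.74 in LNCaP95. In 22Rv1 the treated libraries, at 296.6 to 402.9, overlapped DMSO.

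MGLL, which acts last in lipolysis, ranked last of the 10 genes per kilobase in 22Rv1 DMSO libraries and had no called change under IPI-9119. LNCaP had 115.4, 73.95 and 78.95 in DMSO, 125.7, 96.08 and 84.01 at 100 nM and 96.78, 98.65 and 104.3 at 500 nM. In 22Rv1 it was at 72.48, 68.62 and 49.51 in DMSO, 37.26, 36.02 and 44.65 at 100 nM and 45.07, 68.4 and 44.65 at 500 nM. LNCaP95 was lowest in normalized counts, from 17.22 to 31.12 over DMSO and 22.16 to 32.09 over treated libraries. The 100 nM libraries of 22Rv1 lay below all DMSO libraries, with a log2 fold change of -0.67 ± 0.237 and an adjusted p of 0.122. In DMSO, MGLL was 3.63-fold higher in LNCaP than in LNCaP95 and 2.58-fold higher in 22Rv1 than in LNCaP95, with adjusted p of 2.59e-07 and 1.41e-05. Between 22Rv1 and LNCaP it was not called, at -0.48 ± 0.235, adjusted p 0.0696, but edgeR called it at an adjusted p of 0.034.

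The doses did not differ in any of the 10 genes by the same test with limma, in any line. At an unadjusted p under 0.05 the comparison of 500 nM with 100 nM gave 2 genes in LNCaP, DGAT2 and PLIN3, and 0 in both other lines. Neither edgeR nor DESeq2 called any. Over all genes tested, 0.00779% were called in LNCaP and 0% in 22Rv1 and LNCaP95. DGAT2 and PLIN3 were both lower at 500 nM than at 100 nM in LNCaP, by log2 values of -0.31 ± 0.092 and -0.32 ± 0.0928.

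Among other genes of triglyceride synthesis, AGPAT9 and LPIN1 rose in all 3 lines. Of 20 such genes in the table, 16 were tested at 500 nM in LNCaP and 4 rose, 16 in 22Rv1 and 2 rose, and 17 in LNCaP95, where 6 rose and 3 fell. Over all genes tested, 20.8% were called in LNCaP, 6.97% in 22Rv1 and 52.3% in LNCaP95. The counts of these genes in LNCaP and LNCaP95 lie close to those shares. The median log2 fold change of this list was 0.23, 0.14 and 0.01, against -0.01, 0.00 and 0.03 over all genes. AGPAT9, which encodes the glycerol phosphate acyltransferase now named GPAT3 and catalyses the same step as GPAM, rose in all 3 lines, by 2.22 ± 0.36, 1.80 ± 0.235 and 1.17 ± 0.121 on the log2 scale. It was at 11.54, 10.43 and 20.99 in LNCaP DMSO libraries and at 41.24, 92.39 and 80.32 at 500 nM. LPIN1, a phosphatidate phosphatase that makes diacylglycerol, also rose in all 3, by 2.58 ± 0.392, 1.14 ± 0.161 and 1.0 ± 0.129. Its LNCaP libraries were at 572.4, 465.5 and 458.7 in DMSO and 4006, 2458 and 2665 at 500 nM. AGPAT9 and LPIN1 were called under every alternative tried in every line. AGPAT6, the related acyltransferase now named GPAT4, rose by 0.25 ± 0.0503 in the common test, adjusted p 0.00167. In LNCaP95, AGPAT2 rose by 0.69 ± 0.0876 and GPD1L, a glycerol phosphate dehydrogenase, fell by 0.60.

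**Figure D4:**
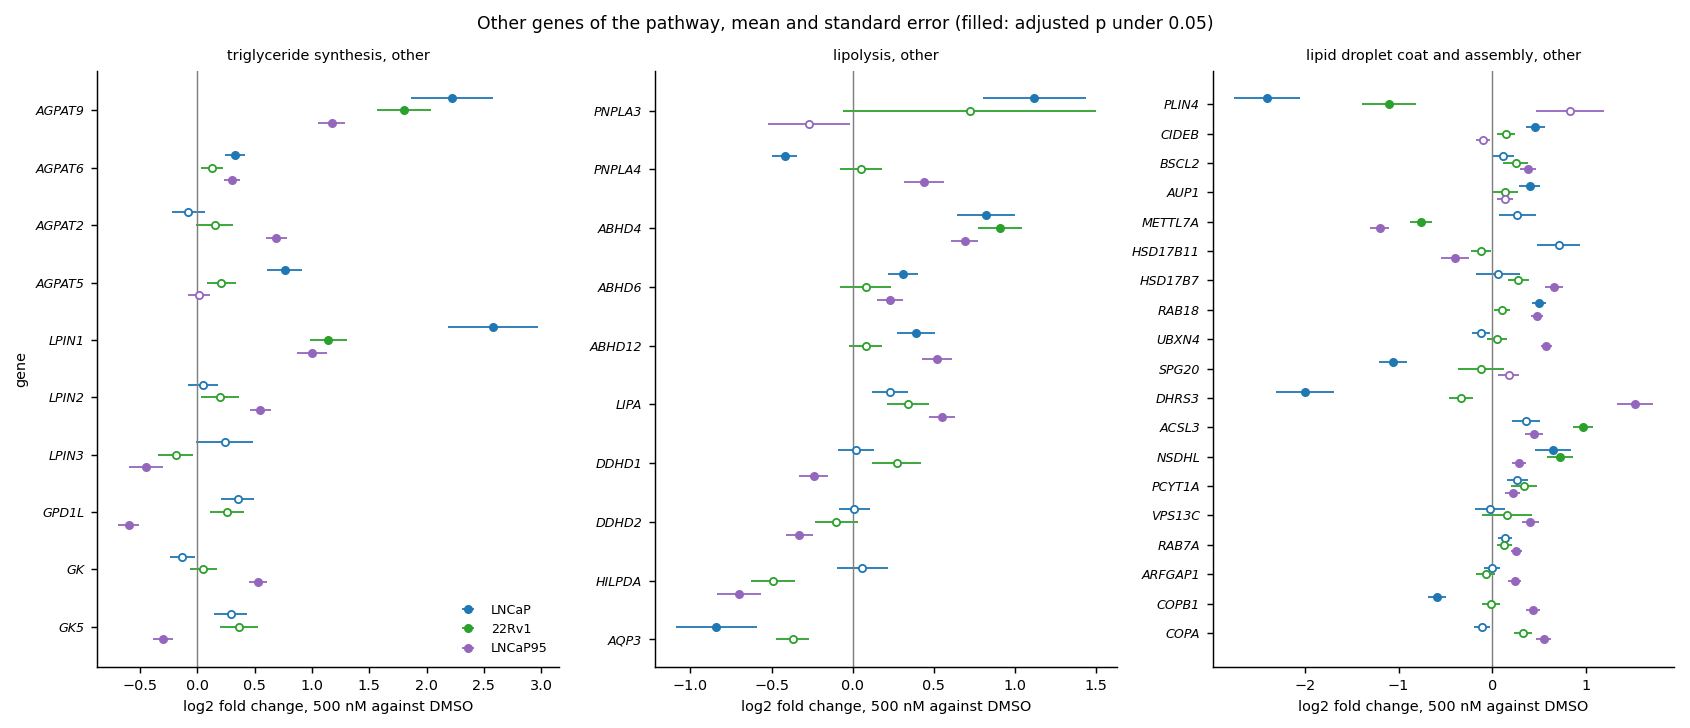
Log2 fold change at 500 nM against DMSO (horizontal axes, with standard error) of genes (vertical axes) of 3 further lists called in at least 1 line or in the common test, coloured by line; filled dots passed an adjusted p of 0.05. AGPAT9 and LPIN1 lie at 1.0 or above in all 3 lines, while DHRS3 lies at -2.0 in LNCaP and 1.53 in LNCaP95.

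Among 20 further lipases and partners of lipolysis, 4 of 11 tested rose and 2 fell in LNCaP, 1 of 14 rose in 22Rv1, and 5 of 12 rose and 3 fell in LNCaP95. The shares called over all genes at 500 nM were 20.8%, 6.97% and 52.3%. ABHD4, a lysophospholipase, rose in all 3 lines, by 0.82 ± 0.178, 0.91 ± 0.135 and 0.69 ± 0.0829. PNPLA3, a lipase relative of PNPLA2, rose by 1.12 ± 0.318 in LNCaP, adjusted p 0.029, a call that was lost at 0.0768 to 0.0994 without DMSO replicate 2, DMSO replicate 3 or 500 nM replicate 1. HILPDA, a peptide inhibitor of PNPLA2 like G0S2, fell by 0.70 in LNCaP95, adjusted p 0.000777. LIPA, the lysosomal acid lipase, rose by 0.55 ± 0.0785 there. PNPLA4 fell by 0.42 in LNCaP and rose by 0.44 ± 0.123 in LNCaP95. The LNCaP count of this list fell to 2 called genes without DMSO replicate 3, and with LNCaP replicates 2 and 3 alone 3 rose and 1 fell.

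Of 32 other genes of droplet coat and assembly, 4 of 25 tested rose and 4 fell in LNCaP, 2 of 26 rose and 2 fell in 22Rv1, and 13 of 25 rose and 2 fell in LNCaP95. Against these stand 20.8%, 6.97% and 52.3% of all genes called at 500 nM, and the LNCaP95 count lies near its share. PLIN4, a perilipin, fell by 2.41 in LNCaP, from 49.63, 43.61 and 32.98 to 4.208, 8.612 and 9.109, and by 1.10 in 22Rv1, adjusted p 0.0368. The fall in 22Rv1 was not called without any single DMSO or 500 nM library of that line, at an adjusted p of 0.0734 to 0.132. RAB18, a small GTPase of droplets, rose by 0.50 ± 0.0781 in LNCaP and 0.48 ± 0.0677 in LNCaP95. ACSL3, an acyl-CoA synthetase of nascent droplets, and NSDHL, a sterol enzyme found on droplets, rose in the common test by 0.59 ± 0.0906 and 0.55 ± 0.0827. DHRS3, a retinal reductase of droplets, fell by 2.0 in LNCaP and rose by 1.53 ± 0.194 in LNCaP95. METTL7A fell by 0.76 in 22Rv1 and by 1.20 in LNCaP95. Of 6 genes of sterol ester storage, SOAT1, which esterifies cholesterol, rose by 0.39 ± 0.0728 in LNCaP95, and LIPA is also counted here.

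Genes that PPAR receptors induce, a group to which PLIN2 and G0S2 also belong, fell more often than they rose. In the common test 2 of 16 rose and 9 fell, with a median of -0.24 against -0.01 over all genes, where 22.9% were called. CPT1A, the entry enzyme of mitochondrial fatty acid oxidation, fell by 1.57 in LNCaP, 0.91 in 22Rv1 and 2.0 in LNCaP95. CAT and SLC25A20, the carnitine carrier, fell by 0.62 and 0.72 in the common test. Of 14 lipogenic targets of SREBP1 and LXR, 12 rose and 0 fell in the common test, with a median of 0.85. Among them were SREBF1 at 1.28 ± 0.0612, SCD at 2.35 ± 0.201 and FASN at 1.60 ± 0.178. Within lines at 500 nM, 11 rose and 0 fell in LNCaP, 13 and 0 in 22Rv1, and 11 and 2 in LNCaP95. Of 21 lipid transcription factors, 4 of 19 tested rose and 2 fell in the common test. In LNCaP95 at 500 nM 8 of 21 rose and 5 fell, where 52.3% of all genes were called. CEBPB, SREBF2 and NR1H2 were among those that rose, and PPARGC1B fell by 1.46.

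The genes whose log2 change was most like that of DGAT2 over the 18 treated libraries were RFX5, IRX3 and METTL21A, with root mean square differences of 0.16, 0.18 and 0.19, among 10847 genes compared. DGAT2 itself lay at a root mean square of 0.51 from 0. RFX5 had log2 fold changes of 0.39 in LNCaP, -0.42 in 22Rv1 and -0.46 in LNCaP95 at 500 nM. Nearest to DGAT1 were SDF4 and CNPY3 at 0.09 and FUNDC2 at 0.10, and nearest to PNPLA2 were G6PC3, STK16 and NAGLU, each at 0.10. DGAT1 and PNPLA2 lay at 0.29 and 0.32 from 0, so these likenesses are to small changes. The libraries of a line share their DMSO means in this measure.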

How the data were processed

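Poly(A) RNA from 27 libraries was sequenced as read pairs after strand-marking library preparation, per the labels' protocols. The submitters' processing notes name STAR 2.3.1z4, featureCounts, DESeq and hg19; no source used here gives the strand setting of the counting. The deposited signal per gene and library is a read count that the authors divided by a size factor: within a tolerance of 1e-06, 100% of the values were whole multiples of 1 read in all 27 libraries.

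Groups came from the labels. Genes reaching 10 in at least 3 of the libraries fitted were tested as log2(value + 1) with limma 3.58.1 (limma-trend, R 4.3.3), two-sided, with Benjamini-Hochberg adjustment over all genes tested in a comparison and a threshold of 0.05. For differences in DMSO this filter counted the DMSO libraries only. For the common test and the differences of effect it had to be passed in each line. Dose comparisons used the 9 libraries of a line. For the effect common to all lines, line was a covariate over 18 libraries, those of DMSO and 500 nM, and differences between lines, in DMSO or in the 500 nM effect, came from 1 fit of all 27 libraries. Scripts were tested on simulated data. The alternatives were edgeR 4.0.16 and DESeq2 1.42.0 on the recovered reads, no filter, a pseudocount of 10, equal library totals, other sets of libraries, a replicate block and leaving out each library.

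All 10 genes are named. Of each further list, up to 6 called genes with the smallest p per comparison could be named, and 3 genes nearest in pattern to DGAT2, DGAT1 and PNPLA2. The genes, lists and tests were chosen with earlier results of these data known. Replicate numbers were taken to pair libraries where every same-number correlation of deviations exceeded 0.1. This held in LNCaP95 (0.13 to 0.47). In LNCaP it held between 500 nM and DMSO (0.13 to 0.32) and between 500 nM and 100 nM (0.26 to 0.39). It did not hold between 100 nM and DMSO in LNCaP (0.00 to 0.08) nor in 22Rv1 (-0.29 to 0.39). LNCaP DMSO replicate 3 correlated best with 500 nM replicate 2, so the pairing of these groups is weak. The pairing was read from the data, since the labels give only the numbers.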

Additional observations from a re-analysis of the deposited data

Results flagged for a closer look

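PLIN2 and G0S2 were not tested for a difference between lines in the effect of 500 nM IPI-9119. Of the other 8 genes, 4 differed, by the limma test of the difference itself. Between 22Rv1 and LNCaP 1 of 8 was called (14.3% of all genes), and between LNCaP95 and LNCaP 4 of 8 (38.9%). Between LNCaP95 and 22Rv1 it was 2 of 8 (25.4%), which is at the share over all genes. DGAT2 had a lower log2 effect in 22Rv1 than in LNCaP, by -0.89 ± 0.182 (SE), and in LNCaP95 than in LNCaP, by -0.73 ± 0.182. PLIN3 had a lower effect in LNCaP95 than in LNCaP, by -0.36 ± 0.132, and than in 22Rv1, by -0.38 ± 0.132. PNPLA2 had a higher effect in LNCaP95 than in LNCaP, by 0.54 ± 0.163, and than in 22Rv1, by 0.50 ± 0.163. LIPE differed between LNCaP95 and LNCaP by 0.95 ± 0.234, with lower values than DMSO in LNCaP and higher ones in LNCaP95.

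Many genes outside the 10 passed the same test, 38.9% of all genes between LNCaP95 and LNCaP. In the lists of triglyceride synthesis, lipolysis and droplets, 3 genes were called in opposite directions in LNCaP and LNCaP95. DHRS3 differed by 3.53 ± 0.345, adjusted p 4.29e-08. COPB1, a subunit of the coatomer, differed by 1.02 ± 0.125, adjusted p 8.28e-07. PNPLA4 differed by 0.86 ± 0.166, adjusted p 0.00023. In the list of lipid transcription factors, CEBPB was also called in opposite directions, at -1.32 ± 0.165 in LNCaP and 0.84 ± 0.0824 in LNCaP95.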

How the results depend on the processing

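All 50 calls among the 10 genes kept their sign under every alternative run, and 35 kept their call under every one. The 50 include 9, 7 and 10 calls between lines in DMSO. Of those, only PLIN2 and PLIN3 between LNCaP95 and LNCaP were lost under some alternative. Every other lost call concerned IPI-9119, so most of the 35 are differences between lines in DMSO. Among these are calls of PLIN2 and G0S2, which passed the filter in DMSO only through their high 22Rv1 values and add no support. The number of genes called moved by over 1.5 times in the following cases. With LNCaP replicates 2 and 3 only, it went from 1 to 0 at 500 nM in LNCaP. With only the 6 libraries compared, it went from 2 to 1 at 100 nM in LNCaP and from 1 to 0 at 100 nM in 22Rv1. It rose from 1 to 2 at 500 nM in 22Rv1 with all 27 libraries in 1 fit, and fell to 0 at 100 nM in 22Rv1 with no filter. With the replicate block, it was 0 at 100 nM in 22Rv1 (DGAT2, adjusted p 0.0515) and 0 in the common test (ABHD5, adjusted p 0.0617), while DGAT1 was called at 100 nM in LNCaP (adjusted p 0.0451). At 100 nM in LNCaP95 it was 5, against 6, with DESeq2 (without ABHD5, adjusted p 0.0519), with equal totals (without ABHD5, 0.0658) and with all 27 libraries (without GPAM, 0.168). With all 27 libraries the number at 500 nM in LNCaP was still 1, but DGAT2 (0.0858) gave way to LIPE (0.049). Beyond the cases named and the LNCaP95 values given above, the block changed no call among the 10 genes. Leaving out 1 library gave 0 to 1 genes at 500 nM in LNCaP, 1 to 3 at 100 nM, 0 to 1 at either dose in 22Rv1, 4 to 6 at either dose in LNCaP95, 0 to 2 in the common test, 3 to 4 for the difference between LNCaP95 and LNCaP and 0 to 2 for that between LNCaP95 and 22Rv1. The causes were not tested. With equal totals, the share of higher genes among all called went from 52.8 to 68.9% at 500 nM and 54.3 to 65.7% at 100 nM in LNCaP, and from 49.8 to 26.6% and 48.7 to 26.9% in 22Rv1. For the differences of effect it went from 47.4 to 21.4% (22Rv1 against LNCaP), 50.9 to 39.5% (LNCaP95 against LNCaP) and 51.2 to 61.6% (LNCaP95 against 22Rv1), and for LNCaP95 against LNCaP in DMSO from 51.1 to 63.3%. There the median of all genes moved from 0.01 to 0.21, DGAT2 at 0.34 and ABHD5 at 0.36 became called, and PLIN2 did not pass (adjusted p 0.0567). The median of the 22Rv1 and LNCaP difference of effect moved from 0.01 to -0.14. Over all genes, with only the 6 libraries, 355 were called at 100 nM in 22Rv1, against 889, 1433 at 500 nM, against 946, and 2158 at 100 nM in LNCaP, against 3250. Leaving out 1 library gave 1475 to 3891 genes at 500 nM in LNCaP, against 2671, 1736 to 4617 at 100 nM, 384 to 697 at 500 nM in 22Rv1 and 261 to 1184 at 100 nM. Between the doses in LNCaP, 1 gene was called, 87 by DESeq2, 49 with all 27 libraries and 755 with replicates 2 and 3 only. Counts of the further lists under these alternatives were added after seeing the data. Within lines, PLIN2 in LNCaP95 and G0S2 in LNCaP and LNCaP95 did not pass the filter on low values and were not tested.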
